A study of Drosophila melanogaster with 6 samples.

Results

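The genes described here are the odorant receptors (Or), gustatory receptors (Gr), ionotropic receptors (Ir) and odorant-binding proteins (Obp) of Drosophila melanogaster, as measured in the early embryo. They were chosen by symbol, as every locus on the chromosome arms 2L, 2R, 3L and 3R with a gene named Or, Gr, Ir or Obp followed by a number. This gave 204 genes at 197 loci, of 17298 genes at 16596 loci in all. By family there were 52 Or, 54 Gr, 55 Ir and 43 Obp genes. A further 30 genes of these families lie on X, 4 or Y and were left out.

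RNA was sequenced from hand-sorted stage 5 embryos, the cellularizing blastoderm, of 2 genotypes with 3 samples each. The zldZnF2 embryos were laid by homozygous mothers in which Cas9 editing had changed a single cysteine to serine in the second zinc finger of Zelda (ZLD), the maternally supplied factor that activates the early zygotic genome. The w1118 embryos came from the standard laboratory strain, which carries the normal zld gene and served as the control. The zldZnF2 embryos inherited the altered ZLD from the mother, so that the comparison concerns maternally supplied ZLD. Both stocks were raised on molasses food, and embryos were staged by eye and collected whole.

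Flies detect chemicals mainly with 3 families of membrane proteins. Or proteins form odor-gated channels together with the co-receptor Orco in olfactory neurons, Gr proteins respond mostly to sugars, bitter compounds or carbon dioxide, and Ir proteins, relatives of glutamate receptors, work with co-receptors such as Ir25a and Ir76b in smell, taste, temperature and humidity sensing. Obp proteins are small secreted carriers that fill the fluid around sensory dendrites, and some of them are also made in tissues with no sensory role. In the fly these families are known from the sense organs of larvae and adults, which a stage 5 embryo has not yet formed.

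The values are FPKM, read fragments scaled to transcript length and to the number of mapped reads, with 1 value for each genotype and locus computed over its 3 samples together. There are no replicate errors to give, so that every difference below is a difference between 2 pooled values without a test, and the depth of each sample is unknown. Outside the members, all 8 blastoderm markers examined were high, among them eve, ftz, sna and slam. They lay between 127 and 1927 FPKM in zldZnF2 and between 102 and 1919 FPKM in w1118. Such values cannot show whether RNA of later stages was present too. The 7 muscle markers described below summed to 2.61 FPKM in zldZnF2 and 44.9 FPKM in w1118. All 2716 loci on X, 4 and Y are listed at 0, among them zld itself under its other symbol vfl, so that the targeted gene could not be checked. On the 4 arms used here, none of 64 ribosomal protein genes alone at their locus was at 0 in both genotypes, though 1 was at 0 in 1 genotype and 5 were under 10 FPKM in both. The median log2 ratio over 5524 loci with at least 1 FPKM in both genotypes was -0.01. The maternal mRNA bcd was lower in zldZnF2, at 9.22 FPKM against 37.8 FPKM in w1118, while nos was at 26.8 FPKM in zldZnF2 and 32.2 FPKM in w1118.

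Most chemosensory genes gave little or no signal. Of the 204 genes, 104 (51.0%) were listed at 0 in both genotypes, against 3379 of the 14278 other genes of the 4 arms (23.7%), 1575 of 9711 other protein-coding genes (16.2%) and 24.7% of all loci of these arms. Another 55 were above 0 but under 0.1 FPKM in both genotypes, 29 reached 0.1 FPKM but not 1 FPKM, and 16 (7.84%) reached 1 FPKM in either genotype. Of the other genes 46.6% reached 1 FPKM, as did 45.1% of all loci, and 31.8% of the other genes reached 10 FPKM, a level at which 6 members (2.94%) were listed. Of these 6 members, 4 were alone at their locus, among them Or43b and Obp44a, whose exons overlap those of highly expressed genes. The table marks 32 members (15.7%) as having enough reads for a comparison, against 52.4% of the other genes.

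**Figure D1:**
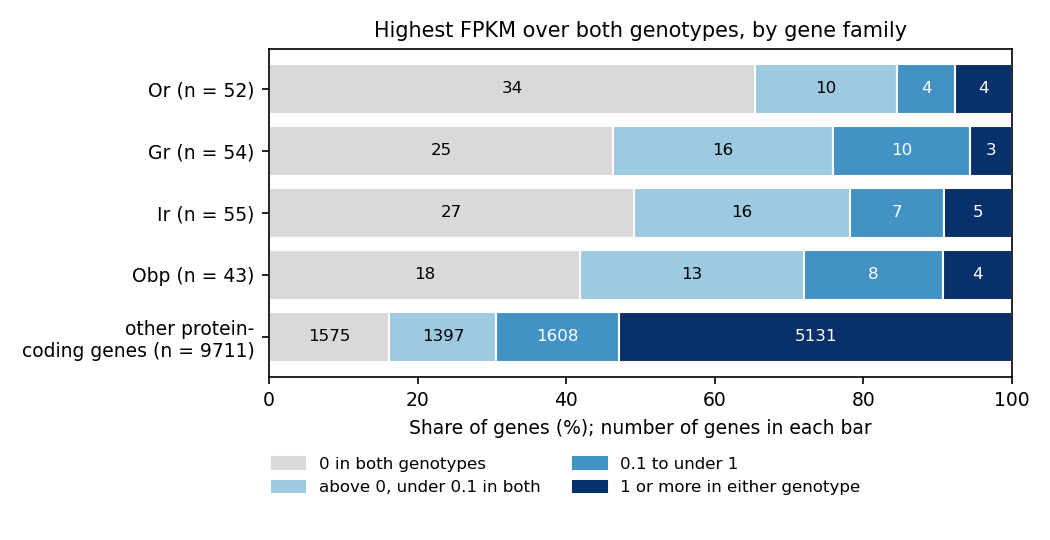
Shares of genes (horizontal axis, in percent) by their highest FPKM over both genotypes, for the 4 families and for the other protein-coding genes of the same arms, with the number of genes printed in each segment. The grey segment, genes at 0 in both genotypes, takes 65.4% of Or, 46.3% of Gr, 49.1% of Ir and 41.9% of Obp genes, against 16.2% of the other protein-coding genes.

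The Or family held the largest share at 0 of the 4 families, 34 of 52 genes, followed by Ir with 27 of 55, Gr with 25 of 54 and Obp with 18 of 43. Signal at or above 1 FPKM was spread over all of them, in 4 Or, 3 Gr, 5 Ir and 4 Obp genes. The number of genes with signal was the same in both genotypes: 123 of the 204 genes were at 0 in zldZnF2 and 123 in w1118, with 62 above 0 in both, 19 above 0 in zldZnF2 only and 19 above 0 in w1118 only. By arm, the genes at 0 in both genotypes numbered 18 of 33 on 2L, 35 of 79 on 2R, 16 of 37 on 3L and 35 of 55 on 3R.

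Some of the lowest values were small enough to come from a few reads. The product of FPKM and transcript length in kilobases was taken for genes alone at their locus with 1 annotated transcript of at least 0.7 kb. It had a smallest recurring amount, 0.00865 in zldZnF2 and 0.00820 in w1118, below which almost nothing was listed, as a single read would give. The amount was also applied to shorter members, for which it was not derived. Of the 89 members alone at their locus and above 0, 15 held about 1 such amount or less in both genotypes. In all, 25 of the 89 held at most 3 in both genotypes, 18 held more than 3 and up to 10, and 46 held more than 10. The transcripts of the members at 0 were about as long as those of the members with signal, with medians of 1226 nt (n = 97) and 1215 nt (n = 89).

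The genes that reached 1 FPKM include members whose reads could not be separated from another gene. The highest value of all, 407.6 FPKM in zldZnF2 and 398.2 FPKM in w1118, belongs to the locus that Gr47b (2R:11361900-11363405) shares with san, which encodes an acetyltransferase needed for sister chromatid cohesion and lies 28 nt away on the same strand. The second highest, 26.6 FPKM in zldZnF2 and 19.9 FPKM in w1118, belongs to the locus that the co-receptor gene Ir25a (2L:4830846-4835300) shares with tank. Each of these 2 values is that of the whole locus and gives no level for the receptor.

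Orco and Ir76b, which were measured alone, had almost no signal. Orco, the obligate partner of the odorant receptors, was listed at 0 in zldZnF2 and at 0.00459 FPKM in w1118. How many of the smallest recurring amounts this value holds was not computed. Ir76b, which works with tuning receptors in smell and taste, was listed at 0 in both genotypes.

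**Figure D2:**
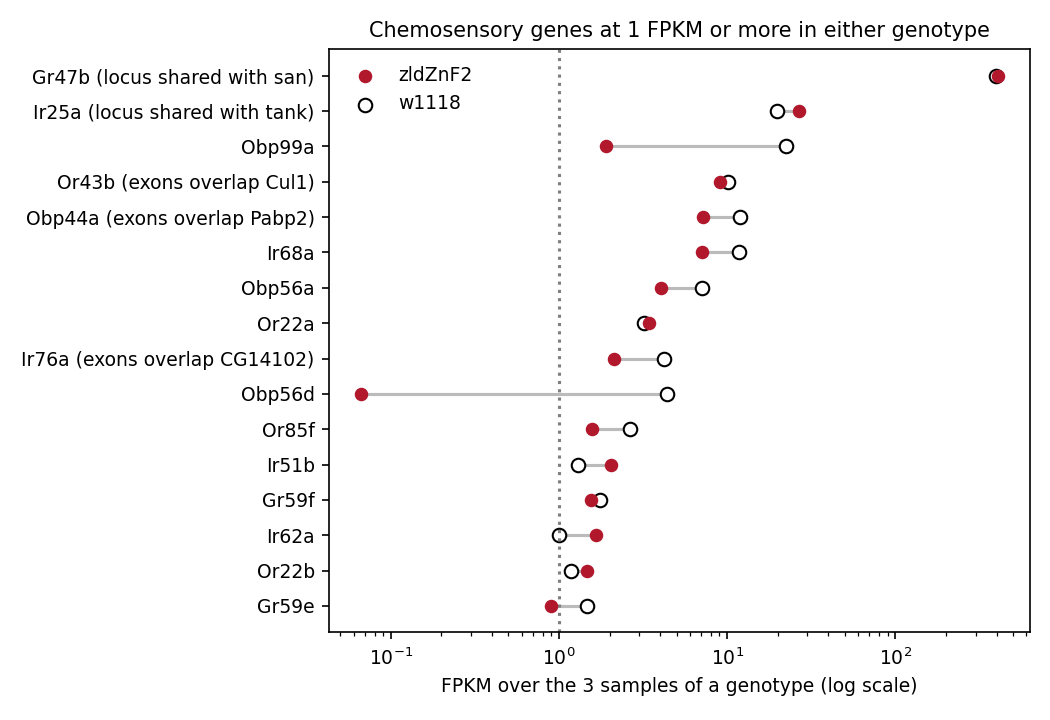
FPKM over the 3 samples of each genotype (horizontal axis, log scale) for the 16 chemosensory genes that reached 1 FPKM in either genotype, with filled red points for zldZnF2, open points for w1118 and a dotted line at 1 FPKM. The 2 highest values are of loci shared with another gene, and the widest gaps between the genotypes are at Obp99a (1.91 FPKM in zldZnF2 and 22.4 FPKM in w1118) and Obp56d (0.0665 FPKM in zldZnF2 and 4.38 FPKM in w1118).

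Of the odorant receptors, Or43b (2R:7920835-7922604) was listed highest, at 9.12 FPKM in zldZnF2 and 10.1 FPKM in w1118. Its exons overlap over 40.7% of their length with those of Cul1, a ubiquitin ligase subunit on the opposite strand, which was at 438 FPKM in zldZnF2 and 486 FPKM in w1118. The kit used for these libraries does not mark strand, so that reads from the 2 genes cannot be told apart over the overlap. Or22a (2L:1520491-1522156), the receptor for fruit esters of a well-studied antennal neuron, was at 3.42 FPKM in zldZnF2 and 3.22 FPKM in w1118 with no exon overlap. Its neighbour and near copy Or22b (2L:1522697-1524257) was at 1.48 FPKM in zldZnF2 and 1.18 FPKM in w1118, and how reads were shared between these similar genes is that of the authors' counting. The pair formed the only group of neighbouring Or genes with both members at 1 FPKM or more, and both values differed little between the genotypes, with log2 ratios of 0.09 and 0.30. Or85f (3R:9398190-9399551), an antennal odorant receptor, was at 1.57 FPKM in zldZnF2 and 2.65 FPKM in w1118, and it lies 685 nt from RpL34b, a ribosomal protein gene at 1710 FPKM in zldZnF2 and 1791 FPKM in w1118.

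Of the gustatory receptors measured alone, only the neighbours Gr59e (2R:23541054-23542379) and Gr59f (2R:23542510-23543885) reached 1 FPKM. Gr59f was at 1.55 FPKM in zldZnF2 and 1.77 FPKM in w1118, and Gr59e at 0.900 FPKM in zldZnF2 and 1.46 FPKM in w1118. Gr59f lies 937 nt from wmd, which was at 158 FPKM in zldZnF2 and 167 FPKM in w1118. None of the 8 sugar receptor genes reached 1 FPKM and none was at 0 in both genotypes, but 5 of them, Gr64a to Gr64e, share 1 locus that was at 0 in zldZnF2 and 0.0108 FPKM in w1118. The fructose receptor Gr43a, which also senses fructose inside the brain, was at 0.580 FPKM in zldZnF2 and 0.369 FPKM in w1118, and Gr61a, a glucose receptor, at 0.345 FPKM in zldZnF2 and 0.130 FPKM in w1118. Of the 5 receptors found broadly in bitter neurons, Gr39a was at 0.702 FPKM in zldZnF2 and 0.417 FPKM in w1118, Gr32a at 0.569 FPKM in zldZnF2 and 0.349 FPKM in w1118, and Gr66a at 0.333 FPKM in zldZnF2 and 0.169 FPKM in w1118, while Gr33a and Gr89a were at 0 in both. The carbon dioxide receptor needs Gr21a and Gr63a together. Gr63a was at 0.328 FPKM in zldZnF2 and 0.268 FPKM in w1118, and Gr21a was at 0 in both genotypes.

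Of the ionotropic receptors measured alone, Ir68a (3L:11232972-11236218), a receptor for moist air, was highest at 7.13 FPKM in zldZnF2 and 11.7 FPKM in w1118. It shares no exon with another gene, and its log2 ratio was -0.71. Ir76a (3L:19799278-19803427), an antennal amine receptor, was at 2.14 FPKM in zldZnF2 and 4.24 FPKM in w1118 (log2 ratio -0.95), and CG14102, whose exons overlap 14.1% of it, moved the same way, at 5.73 FPKM in zldZnF2 and 12.4 FPKM in w1118. Of 2 divergent receptors inside larger genes, Ir51b (2R:15207993-15209786), which lies within row, was at 2.03 FPKM in zldZnF2 and 1.29 FPKM in w1118. The gene row itself was at 95.2 FPKM in zldZnF2 and 93.2 FPKM in w1118. The other of these receptors, Ir62a (3L:1529439-1531259), which lies within Iml1, was at 1.66 FPKM in zldZnF2 and 1.00 FPKM in w1118. Over the list of 16 antennal Ir genes, 5 were at 0 in both genotypes, among them Ir64a and Ir75b, which detect acids, and 3 reached 1 FPKM.

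Of the odorant-binding proteins, 4 reached 1 FPKM. Obp99a (3R:29671657-29672334) was at 1.91 FPKM in zldZnF2 and 22.4 FPKM in w1118, the highest of the 4 in w1118 only. Obp44a (2R:8134170-8135315), known from glia of the nervous system, was at 7.15 FPKM in zldZnF2 and 12.0 FPKM in w1118. Its exons overlap over 19.1% of their length with Pabp2, a nuclear poly(A)-binding protein gene at 150.6 FPKM in zldZnF2 and 149.8 FPKM in w1118. Obp56a (2R:19697723-19698508) was at 4.02 FPKM in zldZnF2 and 7.06 FPKM in w1118, and Obp56d (2R:19702924-19703915), from the same gene cluster and known from many adult tissues, at 0.0665 FPKM in zldZnF2 and 4.38 FPKM in w1118. All 4 were thus lower in zldZnF2, but Obp44a and Obp56a stayed within 2-fold. The summed FPKM of the 38 Obp genes alone at their locus was 16.0 in zldZnF2 and 48.3 in w1118, mostly from these 4. Obp99a alone gave 1.91 FPKM of the zldZnF2 sum and 22.4 FPKM of the w1118 sum. Of the 12 Obp genes with at least 0.1 FPKM in either genotype, 4 were higher and 5 lower past 2-fold. The shares over all loci were 17.3% and 15.1%.

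Just under the limit of 1 FPKM lay Ir93a (3R:20851709-20859945), a co-receptor in humidity and temperature sensing, at 0.811 FPKM in zldZnF2 and 0.262 FPKM in w1118. Next came Or46a, on a locus shared with CG12917, at 0.790 FPKM in zldZnF2 and 0.404 FPKM in w1118, and Obp47b at 0.109 FPKM in zldZnF2 and 0.783 FPKM in w1118. Ir93a lies 281 nt from the ribosomal protein gene RpS30, at 3588 FPKM in zldZnF2 and 3949 FPKM in w1118.

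The genotypes were then compared over the members with at least 0.1 FPKM in either of them, as log2((zldZnF2 + 0.1) / (w1118 + 0.1)). The added 0.1 FPKM understates the difference of low genes. Of the 45 genes, 9 (20.0%) were higher in zldZnF2 past 2-fold and 8 (17.8%) were lower past 2-fold. Over all loci of the 4 arms with that level the shares were 17.3% higher and 15.1% lower, so that as a group the members differed between the genotypes about as often as other genes. Their median log2 ratio was 0.30, with 27 above 0 and 18 below, against -0.00 over all genes. By family the median was -0.03 for 8 Or, 0.54 for 13 Gr, 0.64 for 12 Ir and -0.77 for 12 Obp genes. Among the 12 Ir genes 5 were higher and 1 was lower past 2-fold, among the 12 Obp genes 4 were higher and 5 lower, and the Or and Gr genes past 2-fold were 1 each, both lower. Nearly all of these counts rested on genes under 1 FPKM: with a minimum of 1 FPKM in either genotype, where the shares over all loci were 14.6% higher and 10.7% lower, 16 members remained, none was higher past 2-fold, 2 were lower and the median log2 ratio was -0.41.

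**Figure D3:**
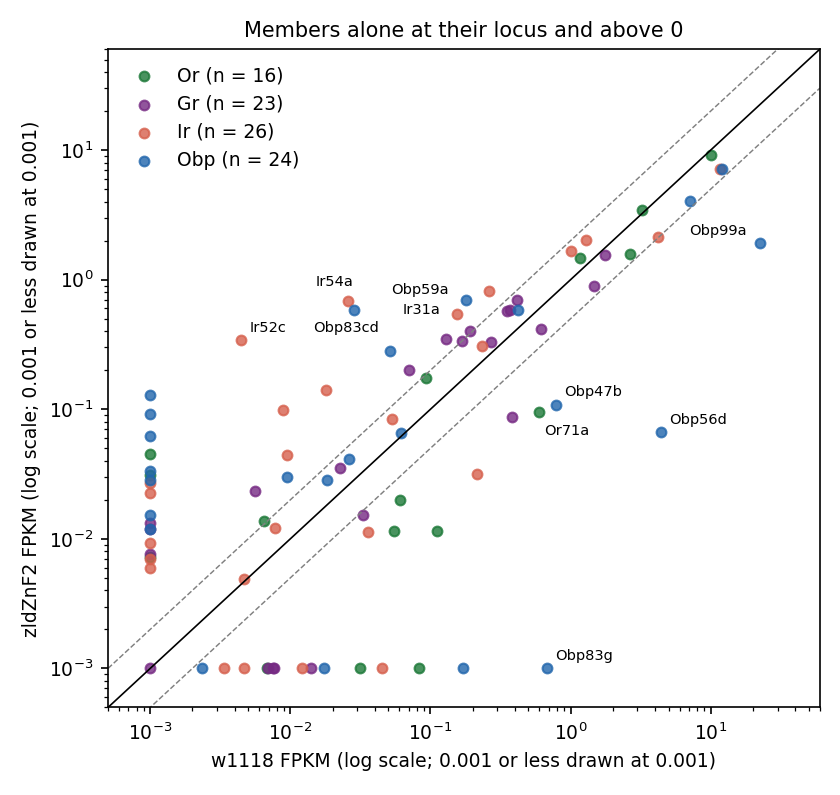
FPKM in zldZnF2 (vertical axis) against FPKM in w1118 (horizontal axis), both on log scales, for the 89 members alone at their locus and above 0, colored by family. The solid line marks equal values and the dashed lines a 2-fold difference, and values of 0.001 FPKM or less are drawn at 0.001. Points above 1 FPKM lie close to the solid line except Obp99a and Obp56d, and the points far from it are mostly under 1 FPKM.

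Both members that were lower in zldZnF2 at 1 FPKM or more were odorant-binding proteins. Obp99a was 11.7 times as high in w1118 as in zldZnF2 (log2 ratio -3.48) and Obp56d was 65.9 times as high in w1118 (log2 ratio -4.75). In units of the smallest recurring amount, Obp99a held 135 in zldZnF2 and 1667 in w1118, and Obp56d held 7.09 in zldZnF2 and 493 in w1118. Neither shares an exon with another gene. Of the genes within 1 kb of Obp99a that had a matched value, the highest was ppk19, 121 nt away. It was at 0.0422 FPKM in zldZnF2 and 0.325 FPKM in w1118. Within the same cluster Obp56a had a log2 ratio of -0.80, so that the 2 cluster members at 1 FPKM or more were lower by unequal amounts.

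The other genes with the lowest ratios were all under 1 FPKM. Obp83g (3R:6111671-6112302) was at 0 in zldZnF2 and 0.673 FPKM in w1118, which is 46.7 of the smallest recurring amounts. Obp47b (2R:11302247-11302987), whose exons lie wholly within those of CG7741, had a log2 ratio of -2.08, while CG7741 was at 43.0 FPKM in both genotypes. Or71a (3L:15076907-15078447), an odorant receptor of the maxillary palp that lies within Plp, was at 0.0950 FPKM in zldZnF2 and 0.600 FPKM in w1118 (log2 ratio -1.84). The remaining 3 lower genes had log2 ratios between -1.43 and -1.26.

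The muscle genes were lower in the same zldZnF2 values. Of the 7 muscle markers, 6 were lower in zldZnF2 past 2-fold, with summed values of 2.61 FPKM in zldZnF2 and 44.9 FPKM in w1118, and Mlc1 and Mf were at 0 in zldZnF2. The exception was Prm, at 1.91 FPKM in zldZnF2 and 0.896 FPKM in w1118. Act57B, on a shared locus, gave 0.336 FPKM of the zldZnF2 sum and 21.7 FPKM of the w1118 sum. Of the 9 markers of mature neurons 4 reached 0.1 FPKM, and of these nSyb (0.350 FPKM in zldZnF2 and 1.21 FPKM in w1118) and Syt1 (0.00683 FPKM in zldZnF2 and 0.134 FPKM in w1118) were lower past 2-fold. The other two were brp, at 0.111 FPKM in zldZnF2 and 0.1003 FPKM in w1118, and Syx1A, at 49.3 FPKM in zldZnF2 and 57.8 FPKM in w1118 on a shared locus. The fat body markers summed to 1.05 FPKM in zldZnF2 and 0.602 FPKM in w1118, mostly from Lsp1gamma at 1.00 FPKM in zldZnF2 and 0.534 FPKM in w1118. Muscle and synapse genes are known mainly from differentiated tissues that stage 5 embryos lack. The shared locus of Syx1A, however, had the highest value of the 9 neuron markers in both genotypes. The part of RNA from differentiated tissues in the Obp values was not tested, and fewer cells of a type and less RNA in each cell cannot be told apart in whole embryos.

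The genes with the highest ratios were 3 ionotropic receptors and 2 odorant-binding proteins, none of which reached 1 FPKM. Ir54a (2R:17744101-17746005) was at 0.687 FPKM in zldZnF2 and 0.0260 FPKM in w1118 (log2 ratio 2.64), and 26.6% of its exons overlap sub, a gene at 92.0 FPKM in zldZnF2 and 106 FPKM in w1118. Obp83cd (3R:6108134-6109733) was at 0.588 FPKM in zldZnF2 and 0.0287 FPKM in w1118 (log2 ratio 2.42), opposite in direction to Obp83g of the same cluster. Ir52c (2R:15504201-15506000), of a group of receptors in taste neurons, was at 0.342 FPKM in zldZnF2 and 0.00443 FPKM in w1118 (log2 ratio 2.08), and the w1118 value is about 1 of the smallest recurring amounts. Obp59a (2R:22702695-22703786), a protein of the humidity-sensing sensilla, was at 0.697 FPKM in zldZnF2 and 0.180 FPKM in w1118 (log2 ratio 1.51). Its exons overlap CG30259, which was at 0.473 FPKM in zldZnF2 and 0.0371 FPKM in w1118. Ir31a (2L:10405565-10408197), an antennal acid receptor, was at 0.546 FPKM in zldZnF2 and 0.154 FPKM in w1118 (log2 ratio 1.34), 154 nt from the ribosomal protein gene RpS27A at 5125 FPKM in zldZnF2 and 5669 FPKM in w1118. The other 4 higher genes had log2 ratios between 1.04 and 1.33, and 0 of the 9 stayed past 2-fold when 1 FPKM in place of 0.1 FPKM was added before the ratio.

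The members with signal lay next to a strongly expressed gene more often than the members at 0. Of the 16 genes at 1 FPKM or more, 8 (50%) had a gene from outside these families of at least 10 FPKM in either genotype within 1 kb, against 23 of 84 genes above 0 but under 1 FPKM (27.4%) and 4 of 104 genes at 0 (3.85%). Exons overlapped another gene for 3 (18.8%), 29 (34.5%) and 7 (6.73%) of these genes in the same order. Without the members that share a locus or an exon, 93 were at 0 and 11 reached 1 FPKM. Of the 30 of them with a ratio, 6 were higher past 2-fold and 5 lower, against 17.3% and 15.1% of all loci. The neighbour counted for Gr47b is san, whose value is that of their shared locus, so that the same signal counts on both sides. Neighbours without a matched value counted as under 10 FPKM, and the same shares over all genes of the 4 arms were not computed. The shares describe the annotation around the members, and the part of reads from neighbouring transcripts in the members' values was not tested.

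**Figure D4:**
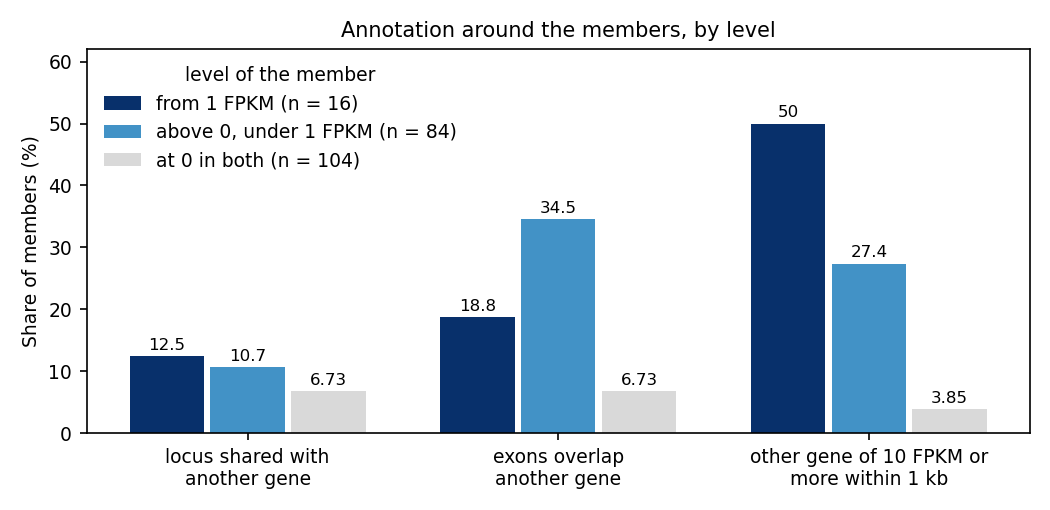
Share of members (vertical axis, in percent) that share a locus with another gene, overlap an exon of another gene, or lie within 1 kb of another gene at 10 FPKM or more, for members at 1 FPKM or more (n = 16), above 0 but under 1 FPKM (n = 84) and at 0 in both genotypes (n = 104). The members at 0 have the lowest share in each of the 3 sets of bars. The share with a strongly expressed neighbour is 50% at 1 FPKM or more, which counts Gr47b by san at their shared locus.

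Many of these genes sit in tandem arrays. With gaps of up to 10000 bp, 36 groups held 105 of the 204 genes. All genes were at 0 in both genotypes in 17 groups, no gene was at 0 in both in 9 groups and 10 groups were mixed. The highest value in each of the 9 groups ranged from 0.00704 FPKM at Ir56b to Ir56d to 3.42 FPKM at Or22a and Or22b. Some of these groups thus held very little signal. Gr59a and Gr59b each held about 1 of the smallest recurring amounts in w1118 and were at 0 in zldZnF2. The largest group with every gene at 0 was the 5 genes Gr22a to Gr22e on 2L, followed by groups of 3 such as Or33a to Or33c, Gr58a to Gr58c and Gr98b to Gr98d. The 6 genes Obp56a to Obp56f formed the group with the highest value among those of odorant-binding proteins, with 2 genes at 0 and 2 at 1 FPKM or more. Similar genes within an array share reads in ways that depend on the authors' counting.

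Gene families that are likewise known from later stages did not all behave like the chemosensory genes. Of 16 Jonah protease genes, digestive enzymes of the larval and adult gut, 1 was at 0 in both genotypes, and all 10 that reached 0.1 FPKM were lower in zldZnF2 past 2-fold, with a median log2 ratio of -2.41 and summed values of 0.418 FPKM in zldZnF2 and 6.78 FPKM in w1118. Of 66 cuticle protein genes 22 were at 0 and 9 reached 1 FPKM, and of the 21 with at least 0.1 FPKM 3 (14.3%) were higher and 5 (23.8%) lower past 2-fold, against 17.3% and 15.1% of all loci. Of the 6 opsin genes, the light receptors of photoreceptor cells, 0 were at 0 in both genotypes, and of the 4 that reached 0.1 FPKM 2 were higher in zldZnF2 past 2-fold and 0 lower, with Rh4 at 5.20 FPKM in zldZnF2 and 1.39 FPKM in w1118. The chemosensory families thus held more genes at 0, at 51.0%, than the cuticle proteins at 33.3%, the Jonah proteases at 6.25% or the opsins, and a difference between these shares was not tested.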

How the data were processed

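Poly(A) RNA of stage 5 embryos was made into libraries with a kit that does not mark strand, and 100 nt single-end reads were sequenced. Per the methods, the authors mapped the reads to dm6 with STAR, assembled transcripts with Cufflinks and compared the genotypes with Cuffdiff; the submitters' processing notes also name TopHat. Options for strand and normalization are not given in the sources used here. The authors deposited 1 table with an FPKM per genotype and locus over its 3 samples, and with columns of their own fold change, test statistic, p-value and q-value, which were not used. A status column was read only as a mark of enough reads.

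Members were matched to Ensembl release 115 (dm6, 204 of 204 found), whose 1-based coordinates and exons are given. Members and lists were chosen with earlier results of these data known. Ratios used a pseudocount of 0.1 FPKM and a minimum of 0.1 FPKM in either genotype, with 2-fold as the limit. With 1 pooled value per genotype no test, SD or interval was possible, and depth is unknown. Genes named were those at 1 FPKM or more, the 10 highest alone at their locus, the co-receptors, the 5 highest and 5 lowest ratios, the 3 just under 1 FPKM, and examples from the lists. The 2 alternatives on exon overlap and on small amounts were chosen after seeing the data. No sequences were printed. Python 3.11.15, NumPy 2.4.6, pandas 2.3.3 and Matplotlib 3.10.9 were used.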

Additional observations from a re-analysis of the deposited data

How the results depend on the processing

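The number of members at 0 in both genotypes was 104, and 159 when an FPKM under 0.1 in both counted as 0. The 16 members at 1 FPKM or more became 30 with a minimum of 0.5 FPKM. Of the 9 higher and 8 lower genes past 2-fold, 0 and 2 were left with a pseudocount of 1 FPKM, and 0 and 2 with a minimum of 1 FPKM in either genotype. Among members that share neither locus nor exon, 5 of the 30 compared were lower, where 8 of 45 were lower among all members. The median log2 ratio of 0.30 became 0.10 with a pseudocount of 1 FPKM and turned to -0.41 with the minimum of 1 FPKM, which leaves 16 members. The other 25 of 34 alternatives, among them centring on the median of all loci, counting each locus once and a pseudocount of 0.01 FPKM, moved no count by more than 1.5 times and turned no direction. No paired analysis was possible because the deposited values are pooled over the samples of a genotype, and for the same reason no sample could be left out in turn.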

Other observations

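Chemosensory genes outside the 4 families were mostly low as well, with few at 1 FPKM or more. Phk-3, a member of the pheromone-binding A10 family of secreted proteins, was at 0.431 FPKM in zldZnF2 and 1.32 FPKM in w1118 (log2 ratio -1.42). The pheromone-binding protein gene lush was at 0.0286 FPKM in zldZnF2 and 0.0920 FPKM in w1118, and Snmp1, a pheromone co-receptor, at 0 in zldZnF2 and 0.00407 FPKM in w1118. Of 26 ppk genes, sodium channel subunits with roles in touch, taste and water balance, 6 were at 0 in both genotypes and 1 reached 1 FPKM, ppk29 at 0.658 FPKM in zldZnF2 and 2.13 FPKM in w1118. Of the 10 ppk genes with at least 0.1 FPKM, 4 (40%) were higher and 3 (30%) lower in zldZnF2 past 2-fold, against 17.3% and 15.1% of all loci of the 4 arms. Of 19 CheA and CheB genes, relatives of a lipid-binding protein family, 9 were at 0 in both genotypes and 1 reached 1 FPKM. This was CheB42c, on a shared locus at 2.26 FPKM in zldZnF2 and 2.46 FPKM in w1118.

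The proneural gene amos, which specifies a class of olfactory sense organs later in development, was at 20.1 FPKM in zldZnF2 and 109 FPKM in w1118 (log2 ratio -2.44), a level above that of all members alone at their locus. The proneural gene ato, for other olfactory organs, stretch receptors and photoreceptors, was at 0.507 FPKM in zldZnF2 and 1.01 FPKM in w1118. These are single pooled values without a test.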
